A study of Rattus norvegicus with 24 samples.

Results

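The small RNA of the central nucleus of the amygdala (CEA) was compared between rats that had undergone partial hepatectomy (HT) and normal control rats (NC). The comparison used 6 of the 24 miRNA libraries of the study, 3 labelled CEA HT and 3 labelled CEA NC, chosen by the names of their count columns. All animals were male Sprague–Dawley rats bought at 7 weeks of age. In the HT group part of the left liver lobe was removed under isoflurane, and the NC group had no hepatectomy. Rats of both groups were habituated to a restraint device on the days before surgery, and both were held in it for as long as rats that received electroacupuncture (EA), so restraint is common to both sides of the comparison. The labels and methods name no sham laparotomy or anaesthesia for the NC group, so the operation, its anaesthetic and the loss of liver tissue cannot be told apart. Brains were collected 24 h after the last EA session, which followed the operation at once. Because a single rat gave limited material, the brain samples of the study were from more than one animal, all of one batch, and the tests below measure the spread between these 3 libraries per group.

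The CEA is an output nucleus of the amygdala whose inhibitory neurons take part in fear, pain and autonomic responses and which reaches the hypothalamic–pituitary–adrenal axis partly through relays to the paraventricular nucleus (PVN). A miRNA is a short RNA that is cut from a hairpin precursor and guides a silencing complex to messenger RNAs, mainly by pairing of its seed, the bases 2 to 8 counted from the 5′ end. Some miRNAs are nearly restricted to one kind of cell, such as miR-124 in neurons, miR-122 in hepatocytes, miR-451 in red cells or miR-223 in myeloid cells, so that in a dissected nucleus their levels also reflect which cells are present. In such bulk tissue, fewer cells of a type and less of a miRNA per cell cannot be told apart.

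The sequences of the miRNAs that the comparison turned on are shown because miR-206-3p and miR-1b share a seed, and because another seed is shared by miR-34b-5p, miR-34c-5p and miR-449a-5p. They are mature sequences from RefSeq (GRCr8), written 5′ to 3′ with the seed in capitals. A mature sequence was found for 477 of the 527 miRNAs tested.
miR-223-3p: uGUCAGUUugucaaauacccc
miR-547-3p: aUUGGUACuucuuuaagugaga
miR-206-3p: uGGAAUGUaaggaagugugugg
miR-1b: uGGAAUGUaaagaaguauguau
miR-10b-5p: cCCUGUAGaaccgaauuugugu
miR-34b-5p: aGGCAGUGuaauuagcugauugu
miR-34c-5p: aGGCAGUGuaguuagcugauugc
miR-449a-5p: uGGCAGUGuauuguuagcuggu

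miR-206-3p and miR-1b have the seed of miR-1-3p. Counted from the 5′ end, miR-1b differs from miR-1-3p by 1 base (G17A), and miR-206-3p differs from miR-1-3p by 3 bases (A11G, A21G and U22G). miR-34b-5p and miR-34c-5p differ by 2 bases (A11G and U23C) and share their seed with miR-449a-5p and miR-34a-5p. In GRCr8, miR-223-3p lies at chrX:65151450-65151470 on the plus strand inside a long non-coding RNA gene, and miR-547-3p at chrX:151712092-151712113 on the minus strand. miR-206-3p lies at chr9:30590747-30590768 on the plus strand, also inside a long non-coding RNA gene, and miR-1b at chr3:187864736-187864757 on the plus strand. miR-10b-5p lies at chr3:80035886-80035907 within the span of Hoxd4, and miR-34b-5p and miR-34c-5p lie at chr8:60306657-60306679 and chr8:60306133-60306155 within the span of Hoatz.

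The libraries held 9463321 to 13614860 miRNA counts, so that 3 counts, taken here as the smallest number that shows a miRNA, equal 0.206 to 0.321 CPM (counts divided by the library size after TMM scaling, on the usual CPM scale). Of 1098 miRNAs in the table, 527 had enough counts to be tested, and the 571 others had at most 76 counts over the 6 libraries. The most abundant were miR-9a-5p, a miRNA of neurons and their progenitors, at 11.1 to 12.9% of the counts of a library, and miR-148a-3p at 7.0 to 16.1%. miR-9b-3p, read from the opposite strand of the miR-9a hairpin, had nearly the same counts as miR-9a-5p and is not a separate measurement. The summed level of 8 neuronal miRNAs was 171494 to 197864 CPM in NC and 161643 to 206770 in HT. The hepatocyte miRNA miR-122-5p stood at 0.860 ± 0.245 CPM in NC and 1.07 ± 0.169 in HT (SD, n = 3), and miR-122-3p was not counted in any of the 6 libraries.

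HT library 1 stood apart from the others. In 317 of the 527 miRNAs (60.2%) its level lay outside the range of the other 5 libraries, 138 times above and 179 times below, against 101 to 226 miRNAs (19.2 to 42.9%) for each of the other libraries. miR-148a-3p was measured at 190851 CPM in HT library 1, at 103237, 65314 and 75260 CPM in NC and at 82134 and 72642 CPM in HT libraries 2 and 3. miR-139-5p was likewise highest in HT library 1, at 23640 CPM against a median of 10419 in the other 5. miR-34a-5p, miR-126a-5p and miR-451-5p were lowest there, at 194, 156 and 58.4 CPM against medians of 423, 368 and 120. Results are therefore given with and without this library.

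**Figure D1:**
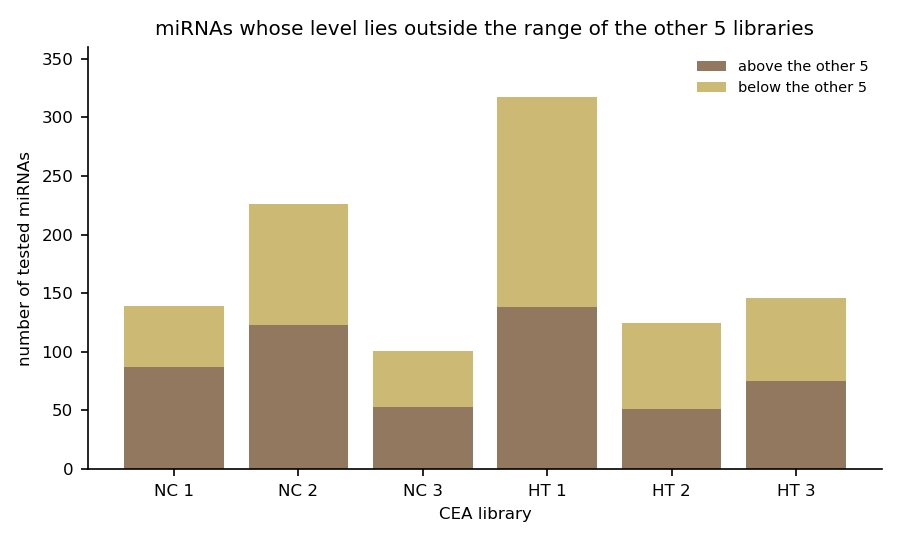
Number of tested miRNAs whose level in a CEA library lies above (dark) or below (light) the levels of all 5 other libraries, for NC libraries 1 to 3 and HT libraries 1 to 3. HT library 1 has 317 such miRNAs, NC library 2 has 226 and the other 4 have 101 to 146.

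Few miRNAs differed between HT and NC in the CEA. At the unadjusted threshold of 0.05 that the study used, edgeR's quasi-likelihood test called 6 of 527 miRNAs (1.14%), of which 2 were higher in HT (0.38%) and 4 lower (0.759%). The higher ones were miR-547-3p and miR-30d-5p, and the lower ones were miR-223-3p, miR-200b-3p, miR-206-3p and miR-1b. If no miRNA changed, a threshold of 0.05 would be passed by 26.35 of 527 tests on average, so the 6 calls are fewer than that number. None passed an adjusted p of 0.05 in edgeR (smallest adjusted p = 0.981), while DESeq2, which called the same 6 miRNAs at the unadjusted threshold, gave miR-223-3p an adjusted p of 0.00231. Without HT library 1, 7 of 540 miRNAs were called (1.3%), 2 higher (0.37%) and 5 lower (0.926%). Of these, 5 were among the 6, miR-206-3p being lost, and the other two were miR-6216 and miR-3594-5p, named here after their values were seen. The number called was 21 without NC library 1, 21 without HT library 2, 16 without HT library 3, 4 without NC library 2 and 7 without NC library 3. In 25 miRNAs (4.74%) every HT library was below every NC library and in 7 (1.33%) above, 32 in all (6.07%). Log2 fold changes and calls below are from edgeR unless another tool is named.

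Over all 527 miRNAs the median log2 fold change was -0.03, with 285 below 0 and 242 above. The 95% intervals of the log2 fold changes were narrower for abundant miRNAs. The median distance from the estimate to either end was 0.49 over all miRNAs, 0.37 among the 209 at 100 CPM or more and 0.84 among the 175 under 10 CPM. For 391 miRNAs (74.2%) the whole interval lay within 2-fold in either direction. Only 7 miRNAs had an absolute log2 fold change over 1, and 6 of these were under 10 CPM. At 100 CPM or more, 5 exceeded 0.5 and the largest, 0.55, was that of miR-139-5p, which was -0.01 without HT library 1.

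**Figure D2:**
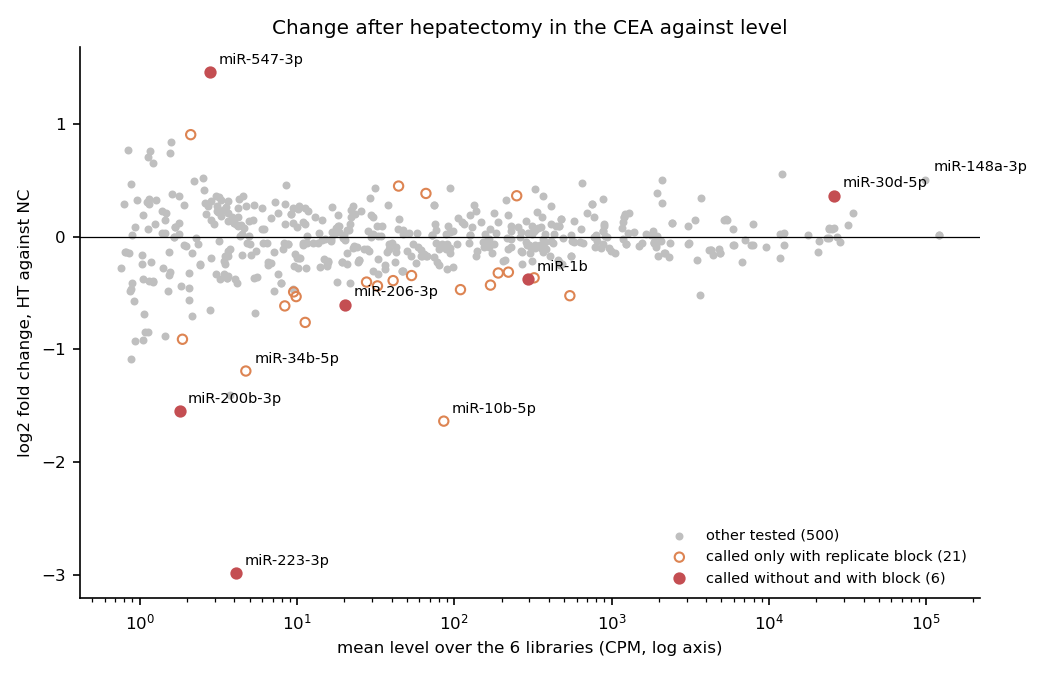
Log2 fold change of HT against NC in the CEA for each of the 527 tested miRNAs against its mean level in CPM over the 6 libraries (log axis). Filled red points are the 6 miRNAs called, open orange points the 21 called only when the replicate number is a block, and grey points the other 500. The points narrow toward 0 as the level rises, and miR-223-3p and miR-10b-5p lie lowest.

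miR-223-3p, a miRNA of neutrophils, monocytes and platelets, had the largest difference. Its counts were 12, 145 and 116 in NC and 11, 9 and 12 in HT, or 1.28, 9.94 and 10.7 CPM against 1.07, 0.87 and 0.84 CPM. NC libraries 2 and 3 were high, whereas NC library 1 lay close to the HT libraries, and the groups did not overlap. The log2 fold change was -2.98 (SE 0.688, 95% interval -4.54 to -1.43). Without HT library 1 it was -3.10 and still called. The call was kept when each of the 6 libraries was left out in turn (-3.47 to -2.57). The adjusted p ranged from 7e-11 to 0.999 over the alternatives tried, and limma-voom with library weights did not call it. The lowest value came from the fit with a minimum of 1 count and the usual estimate of spread. That fit had infinite prior degrees of freedom, which makes adjusted p-values of variable miRNAs too small. No other tested miRNA had the seed of miR-223-3p.

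The level of miR-223-3p in the CEA had 2 ranges. Over all 12 CEA libraries, scaled together, 7 lay between 0.87 and 1.70 CPM and 5 between 10.1 and 18.3 CPM, with none between 3 and 10 CPM. The HT libraries were all in the lower range. In the HT + EA group, rats given hepatectomy and electroacupuncture, the levels were 1.19, 11.7 and 10.1 CPM, and in the HT + sham EA group (SEA, needles without current) they were 18.3, 1.37 and 1.70 CPM. Each of the groups other than HT thus had libraries of both ranges.

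No other miRNA of the inflammation and myeloid list was called without the block. Of its 8 tested members 1 was called, against 1.14% of all miRNAs, and their median log2 fold change was -0.15 against -0.03 overall. miR-142-3p, expressed throughout the blood lineage, was measured at 44.9, 49.6 and 44.7 CPM in NC and 25.2, 37.5 and 43.4 CPM in HT. Its groups did not overlap, and its log2 fold change was -0.39 (SE 0.215), not called, and -0.21 without HT library 1. miR-155-5p and miR-21-5p, which rise in activated macrophages and injured tissue, had log2 fold changes of 0.32 (SE 0.311) and -0.09 (SE 0.160) without a call. miR-146a-5p, a brake on Toll-like receptor signaling, was at -0.21 (SE 0.183).

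miR-206-3p and miR-1b, the pair with one seed, were both called lower. miR-206-3p, which is abundant in skeletal muscle, was measured at 16.2, 29.8 and 27.4 CPM in NC and at 16.2, 15.9 and 16.4 CPM in HT. NC library 1 lay within the HT range, and NC libraries 2 and 3 were higher. Its log2 fold change was -0.60 (SE 0.240, 95% interval -1.14 to -0.07), and -0.61 without HT library 1, where the call was lost. Of the 6 fits with 1 library left out, 1 kept the call, and without NC library 2 the log2 fold change was -0.39 and not called. Over all 20 alternatives 13 called it.

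miR-1b was measured at 289, 384 and 324 CPM in NC and at 255, 268 and 244 CPM in HT. All HT libraries were below all NC libraries. The log2 fold change was -0.38 (SE 0.162, 95% interval -0.74 to -0.02) and -0.38, still called, without HT library 1, and 2 of the 6 fits with 1 library left out kept the call. Without NC library 2 it was -0.22 and not called. Over all 20 alternatives 12 called it, and RLE scaling, upper quartile scaling, a fit of all 4 CEA groups and a table with identical counts counted once did not. miR-1-3p, which shares the seed and differs from miR-1b by 1 base, stood at a mean of 3.57 CPM, with a log2 fold change of -0.36 (SE 0.333), not called. Reads of these near-identical miRNAs may have been divided between them by the authors' counting, so their levels are uncertain against each other. The other muscle miRNAs, miR-133a-3p and miR-133b-3p, were at 0.20 (SE 0.301) and 0.11 (SE 0.415), so 1 of 4 tested members of the striated muscle list was called lower, against 0.759% of all miRNAs.

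miR-200b-3p, which keeps epithelial cells from losing their contacts by silencing ZEB factors, was measured at 1.18, 4.87 and 1.94 CPM in NC and at 0.88, 1.16 and 0.77 CPM in HT. The groups did not overlap, but NC library 1 and HT library 2 were nearly equal and every HT library had 9 to 12 counts. The log2 fold change was -1.54 (SE 0.541, 95% interval -2.75 to -0.34), and -1.52, still called, without HT library 1. Of the 6 fits with 1 library left out, 4 kept the call. Without NC library 2 it was -0.71 and not called, and the call was also lost without HT library 3 and by DESeq2 without HT library 1. All 6 tested members of the epithelial and sensory list had negative log2 fold changes (median -0.49), as had 285 of all 527 miRNAs. Of the 6, 1 was called lower, miR-200b-3p, against 0.759% of all miRNAs. Its relative miR-200a-3p was higher in HT library 1 than in NC library 1 by 0.86 on the log2 scale and lower in the other same-numbered pairs by 1.84 and 1.5. miR-205, a miRNA of stratified epithelium, was also below NC in every HT library, at a log2 fold change of -0.88 (SE 0.412), not called, and with 1.18, 2.61 and 1.84 CPM against 0.97, 1.06 and 1.05 CPM.

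miR-30d-5p was the most abundant of the called miRNAs and belongs to the broadly expressed miR-30 family. It was measured at 24318, 23419.5 and 20286 CPM in NC and at 30558, 27709 and 29186 CPM in HT. All HT libraries were above all NC libraries. The log2 fold change was 0.36 (SE 0.130, 95% interval 0.07 to 0.65) and 0.32, still called, without HT library 1. The call was kept in 5 of the 6 fits with 1 library left out and was lost without NC library 3 (0.33) and when libraries were scaled by their totals (0.30). Of the 7 tested members of the family only this one was called, against 0.38% of all miRNAs called higher. miR-30b-5p was at 0.33 (SE 0.181), not called, with every HT library above every NC library, whereas miR-30a-5p, miR-30c-5p and miR-30e-5p were at 0.01, -0.07 and -0.17.

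miR-547-3p was the other miRNA called higher. It was measured at 1.39, 1.99 and 1.01 CPM in NC and at 5.16, 5.40 and 1.83 CPM in HT, or 13, 29 and 11 counts against 53, 56 and 26. HT library 3 lay within the NC range. The log2 fold change was 1.46 (SE 0.468, 95% interval 0.41 to 2.50), and 1.24, still called, without HT library 1. The call was kept in all 6 fits with 1 library left out and was lost by DESeq2 without HT library 1.

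**Figure D3:**
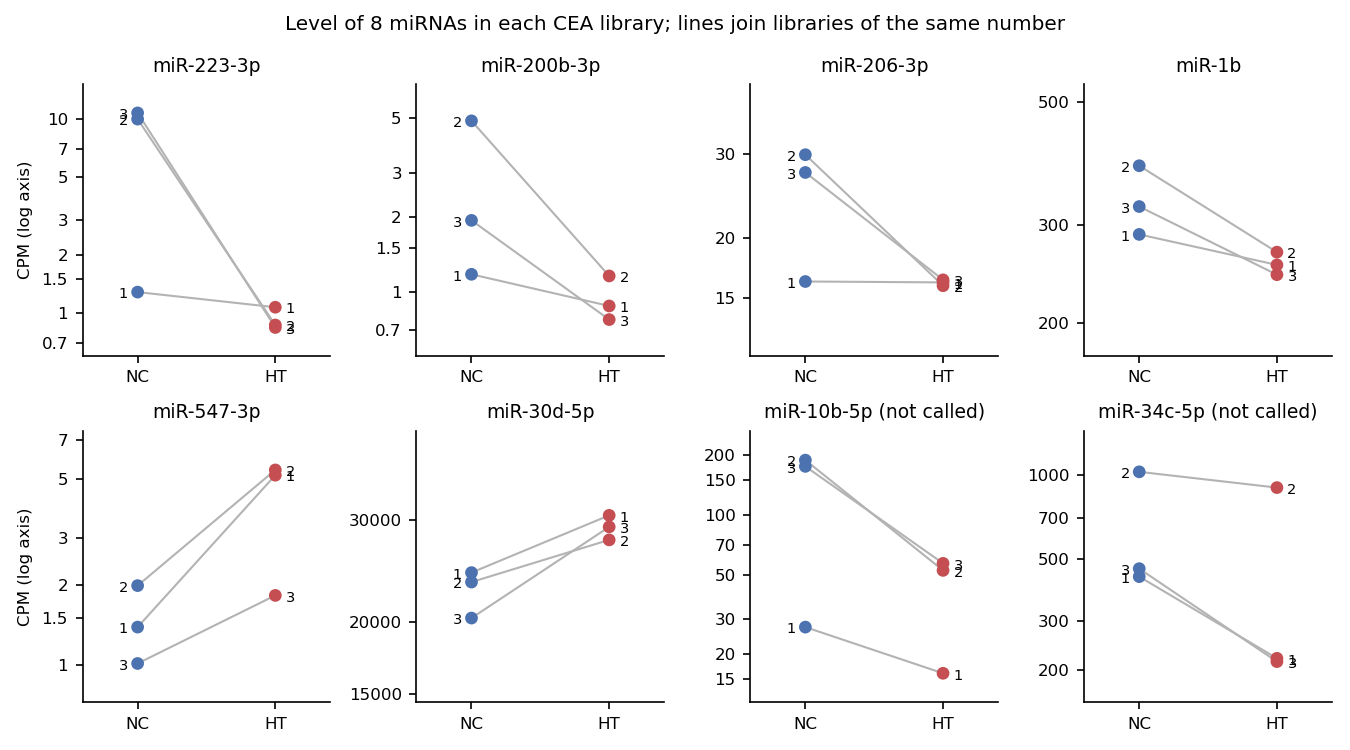
Level in CPM (log axis) of 8 miRNAs in NC (blue) and HT (red) libraries of the CEA, each point a library with its replicate number and each line a pair of libraries with the same number. The first 6 panels are the called miRNAs. In the panels of miR-10b-5p and miR-34c-5p, which were not called, the groups overlap but every line falls.

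Libraries with the same replicate number deviated together from their group means, so each HT library was also compared with the NC library of its number. This pairing was chosen on the same data that it was then used to test. With the replicate number as a block in the fit, 27 of 527 miRNAs (5.12%) were called, 6 higher (1.14%) and 21 lower (3.98%). On average 26.35 of 527 tests would be called if no miRNA changed, so the 27 calls are close to that number. Their number alone therefore does not show that the block brought out changes. The 27 included all 6 called without the block, and the 21 others are those described below as called only with it. Several of these 21 were also called in other alternatives. All 21 that were lower were below NC in each of the 3 same-numbered pairs, which was so for 83 of all 527 miRNAs (15.7%), while 45 (8.54%) were above NC in each pair. The fit with the block selects miRNAs whose same-numbered pairs differ alike, so that all 21 were lower in every pair follows largely from this selection. Of the 21 called only with the block, 20 had a log2 fold change nearer 0, with the same sign, when HT library 1 was left out of the fit without the block, the exception being miR-344g. The block leaves only 2 residual degrees of freedom per miRNA, and what same-numbered libraries share is not stated.

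One miRNA passed an adjusted p of 0.05 with the block. miR-10b-5p, encoded in the HoxD cluster and abundant in hindbrain and spinal cord rather than forebrain, was measured at 27.2, 188 and 175 CPM in NC and at 16.0, 52.5 and 56.9 CPM in HT. Library 1 was the lowest of each group, so the groups overlapped while each HT library was below its NC counterpart, by 0.75, 1.83 and 1.61 on the log2 scale. With the block the log2 fold change was -1.44 (SE 0.207, edgeR adjusted p = 0.0242). Without it the log2 fold change was -1.63 (SE 0.797, edgeR adjusted p = 0.981) and not called, and without HT library 1 it was -1.26. Over 20 alternatives the adjusted p ran from 5.58e-11 to 0.999. The lowest value came from the fit with a minimum of 1 count and the usual estimate of spread. That fit had infinite prior degrees of freedom, which makes adjusted p-values of variable miRNAs too small. The other tested member of the Hox cluster list, miR-10a-5p, was not called in either fit (-0.23, SE 0.223). Over the 12 CEA libraries, the 5 with miR-223-3p at 10 CPM or more had miR-10b-5p at 132 to 201 CPM, and the 7 others had it at 11.3 to 67.4 CPM.

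**Figure D4:**
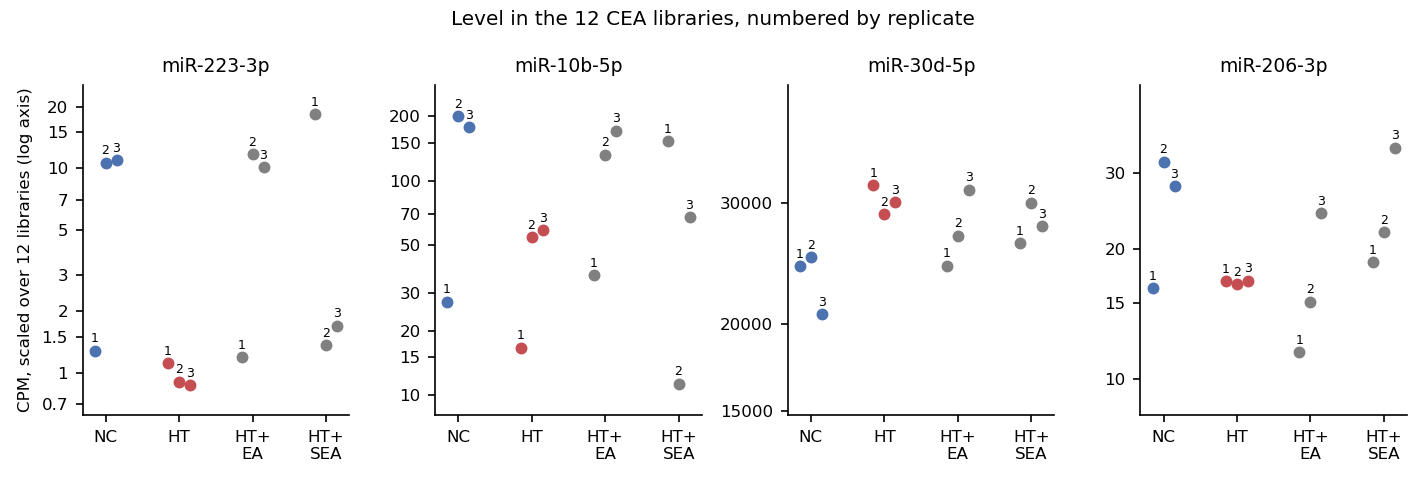
Levels of miR-223-3p, miR-10b-5p, miR-30d-5p and miR-206-3p in CPM scaled over the 12 CEA libraries (log axis), by treatment, each point a library with its replicate number. miR-223-3p splits into 7 libraries under 3 CPM and 5 at 10 CPM or more, and the HT libraries hold the lower range only.

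miRNAs with the seed GGCAGUG were among those called with the block. The miR-34b/c and miR-449 genes are strongly expressed in multiciliated cells, such as those lining the ventricles. miR-34c-5p was measured at 433, 1027 and 462 CPM in NC and at 221, 902 and 215 CPM in HT. Both groups spanned a wide range, with library 2 highest in each, and they overlapped. Its log2 fold change was -0.75 with the block (SE 0.182, edgeR adjusted p = 0.227) and -0.52 without it (SE 0.675, adjusted p = 0.981). Over its alternatives it ran from -1.52 without HT library 2 to 0.039 without NC library 2, so that its sign turned, and 2 of 19 without the block called it. miR-34b-5p was at 2.35, 12.5 and 4.80 CPM in NC and 0.68, 6.27 and 1.83 CPM in HT, a log2 fold change of -1.29 with the block (SE 0.290, edgeR adjusted p = 0.227) and -1.19 without it (SE 0.849), with a range of -2.33 to -0.26 over its alternatives and the same libraries left out at either end. miR-449a-5p was at -0.86 with the block and -0.91 without it. The fourth miRNA of this seed, miR-34a-5p, which is expressed in many cell types, was not called in either fit (-0.14 without and -0.19 with the block). Because miR-34b-5p and miR-34c-5p both lie within the span of Hoatz, their calls may not be separate results. Of the 5 tested ciliated cell miRNAs, 3 were called lower with the block, against 3.98% of all miRNAs, and 0 without. Their summed level ran from 453 to 1079 CPM in NC and from 228 to 952 in HT, and their median log2 fold change moved from -0.52 to -0.22 without HT library 1.

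Red cell miRNAs showed the same dependence on the block. miR-451-5p, which is cut from its precursor without Dicer and accumulates in red cells, was measured at 86.7, 138 and 157 CPM in NC and at 58.4, 120 and 97.5 CPM in HT. miR-144-3p, from the same precursor transcript, was at 10.4, 14.2 and 18.2 CPM in NC and 3.41, 7.04 and 14.6 CPM in HT. The groups overlapped for both, and each HT library was below its same-numbered NC library. With the block their log2 fold changes were -0.49 (SE 0.153) and -0.93 (SE 0.260), and without it -0.47 (SE 0.297) and -0.76 (SE 0.454). miR-144-5p was at -0.49 in both fits and called only with the block, and miR-486, also a red cell miRNA, was at -0.06 without a call. Thus 3 of 4 were called lower with the block, against 3.98% of all miRNAs, and 0 without. The 3 called lie at the same locus on chromosome 10, so their calls may not be separate results. The summed level of the 4 was 162 to 246 CPM in NC and 112 to 198 in HT. Without HT library 1 the median log2 fold change of the list was -0.32 in place of -0.48.

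The other miRNAs called only with the block came from several lists or from none. miR-219a-5p, which promotes the maturation of oligodendrocytes, was measured at 141, 243 and 201 CPM in NC and at 89.2, 191 and 154 CPM in HT, a log2 fold change of -0.46 with the block (SE 0.140) and -0.43 without it (SE 0.295), and -0.19 without HT library 1. The 3 other oligodendrocyte miRNAs tested, miR-219a-2-3p, miR-338-3p and miR-338-5p, were at -0.12, -0.17 and -0.24 and were called in neither fit. miR-126a-5p of endothelial cells was at -0.45 with the block, -0.37 without it and -0.08 without HT library 1, and its partner strand miR-126a-3p was at 0.06 with the block and not called. miR-203a-3p of squamous epithelium was at -0.44, and miR-203b-5p, from the opposite strand of the same site, was at -0.42 with the block. Whether these are separate measurements was not tested. miR-199a-5p, miR-217-5p, miR-142-3p, miR-674-5p, miR-450a-5p and miR-450b-5p were also lower, the last pair having one seed and nearly the same log2 fold change (-0.32 and -0.33 with the block). Of those called higher only with the block, miR-667-3p, a member of the imprinted Dlk1-Dio3 cluster, was at 44.9, 32.4 and 35.2 CPM in NC and at 65.1, 44.0 and 44.2 CPM in HT (log2 fold change 0.44, SE 0.152, with the block and 0.45, SE 0.217, without it), and at 0.23 without HT library 1. It was also called in 8 of 19 alternatives without the block. The others were miR-212-3p, miR-3559-5p and miR-344g.

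Neuronal miRNAs showed no call in either fit, against 1.14% of all miRNAs without the block and 5.12% with it. The 8 tested had log2 fold changes from -0.09 to 0.07, with a median of 0.00. miR-124-3p, which suppresses non-neuronal messages in neurons, was measured at 1589, 1476 and 1529 CPM in NC and at 1082, 1329 and 1922 CPM in HT, a log2 fold change of -0.08 (95% interval -0.53 to 0.36). miR-9a-5p was at 0.02 (95% interval -0.28 to 0.31). Both intervals lay within 2-fold in either direction.

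The activity-regulated miRNAs depended on HT library 1. miR-132 and miR-212 are transcribed together under the control of CREB in active neurons. miR-132-3p was measured at 1798, 1607 and 1673 CPM in NC and at 3169, 1597 and 1868 CPM in HT, where library 1 alone was high. The 5 members had a median log2 fold change of 0.36, and of 0.03 without that library. None was called, against 1.14% of all miRNAs. With the block miR-212-3p was called higher (0.32), against 1.14% of all miRNAs called higher with the block. The summed level was 5814 to 6299 CPM in NC, 10564 in HT library 1, and 6031 and 6041 CPM in HT libraries 2 and 3. The 11 miRNAs that earlier results of these data gave as enriched in the CEA, a list chosen on these libraries and led by miR-139-5p, behaved alike, with a median of 0.19 that became -0.03 without HT library 1. The 20 tested of the corresponding PVN list had a median of 0.04 and no call, against 1.14% of all miRNAs.

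Of 14 tested miRNAs that have been described as regulators of the stress axis, among them miR-18a-5p, miR-124-3p and miR-135a-5p, 0 were called (1.14% of all), with a median log2 fold change of -0.08. Without HT library 1 this median was 0.07. With the block 2 were called lower, against 3.98% of all miRNAs, namely miR-34c-5p and miR-144-3p, which are also in the ciliated and red cell lists. miR-375-3p, a miRNA of endocrine cells, had the widest error of the list (0.03, SE 0.964). The 11 tested miRNAs that the study names in its networks of the PVN, among them miR-92b-3p, miR-328a-3p and miR-138-5p, lay between -0.14 and 0.24, with 0 called without the block (1.14% of all) and with it (5.12% of all).

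The remaining families and lists had no call without the block. The 77 tested miRNAs of the Dlk1-Dio3 cluster, many of which are expressed in neurons, had a median of 0.03 and a range of -0.48 to 0.84, with 0 called without the block (1.14% of all) and 1, miR-667-3p, with it (5.12% of all). The let-7 family, which marks differentiated cells, had 9 members between -0.15 and 0.01. The miR-29 family lay between -0.17 and 0.42 (7 tested, median 0.05), and the miR-181 family between -0.33 and 0.11 (7 tested, median -0.22, and -0.01 without HT library 1). The 6 endothelial and mural miRNAs had a median of -0.23 and 0 calls, or -0.09 without HT library 1. miR-204-5p of the choroid plexus was at -0.20 (SE 0.243) and its partner strand miR-204-3p at 0.24 (SE 0.313). The 3 tested liver miRNAs were at -0.07 to 0.33, with 0 called.

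**Figure D5:**
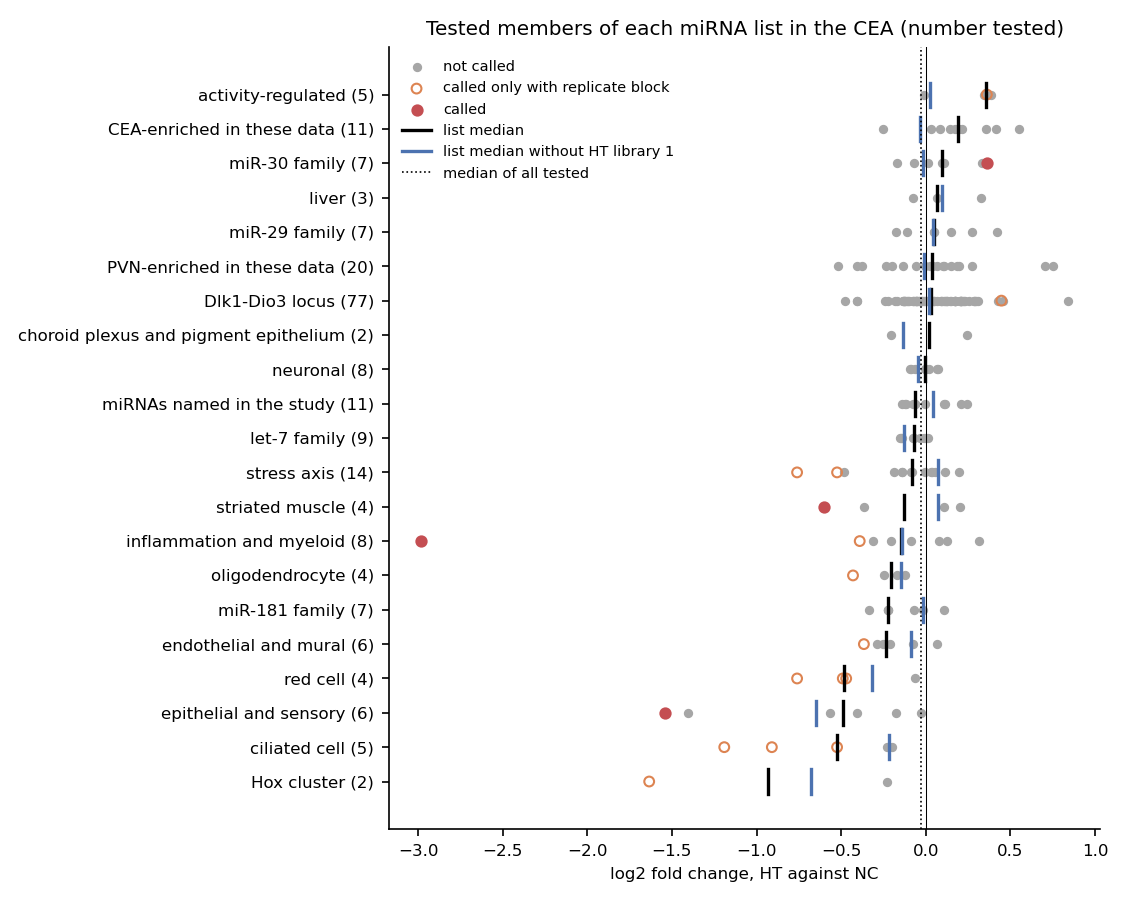
Log2 fold change of HT against NC in the CEA for the tested members of 21 miRNA lists (number tested in brackets). Red points are called, open orange points are called only with the replicate block, black bars are list medians, blue bars the medians without HT library 1, and the dotted line is the median of all 527 miRNAs, -0.03. The activity-regulated and CEA-enriched lists move to about 0 without HT library 1, and the ciliated and red cell lists move toward 0.

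The effect of HT in the CEA was set against that in the PVN, the hypothalamic nucleus whose neurons drive the hypothalamic–pituitary–adrenal axis, in a fit of the 12 NC and HT libraries of both nuclei. In this fit 8 of 549 miRNAs (1.46%) were called in the CEA and 50 (9.11%) in the PVN. A difference between the nuclei was called for 11 miRNAs (2.0%), 7 positive (1.28%) and 4 negative (0.729%), at an unadjusted p under 0.05 by edgeR, and likewise for 11 by DESeq2. None passed an adjusted p of 0.05 in either tool, so the data do not show for any single miRNA that HT acted otherwise in the CEA than in the PVN.

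Of the 6 miRNAs called in the CEA, 3 had a smaller difference there than in the PVN at the unadjusted threshold, and all 6 had the same sign in both nuclei. In the 12-library fit miR-206-3p and miR-1b were no longer called in the CEA. miR-206-3p was at 25.8, 89.3 and 33.2 CPM in NC and at 15.8, 10.2 and 7.88 CPM in HT of the PVN, a log2 fold change of -2.15 against -0.58 in the CEA in the same fit (difference 1.57, SE 0.588, edgeR adjusted p = 0.943). miR-1b was at -1.02 in the PVN and -0.36 in the CEA (difference 0.66, SE 0.283, adjusted p = 0.943). miR-223-3p was at 22.4, 87.3 and 82.1 CPM in NC and at 1.03, 1.35 and 1.43 CPM in HT of the PVN, or -5.63 against -2.97 in the CEA (difference 2.67, SE 1.08, adjusted p = 0.943). The HT libraries of both nuclei were thus at a like low level of miR-223-3p, and the NC libraries were higher in the PVN. For miR-30d-5p the log2 fold changes were 0.34 in the PVN and 0.38 in the CEA (difference 0.05, 95% interval -0.38 to 0.47). For miR-547-3p they were 0.71 and 1.47 (difference 0.76, 95% interval -0.38 to 1.89), and for miR-200b-3p -1.68 and -1.53 (difference 0.15, 95% interval -1.66 to 1.96). miR-10b-5p was at -2.46 in the PVN and -1.61 in the CEA (difference 0.85, 95% interval -1.64 to 3.35).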

How the data were processed

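The authors made small RNA libraries with a NEBNext kit, filtered the reads and aligned them to a genome (mRatBN7.2 in the paper, human builds in the submitters' processing notes). HISAT2 and featureCounts are named for the sequencing as a whole, and the counting of miRNAs is not given in the sources used here. The authors deposited raw counts per miRNA for 703 known and 395 predicted miRNAs, and 24 further columns of values were not used. In 22 groups, 55 miRNAs had identical counts.

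The 6 CEA libraries of the NC and HT groups, grouped by their titles, were fitted in R 4.3.3 with limma 3.58.1 and edgeR 4.0.16, using TMM, filterByExpr, robust glmQLFit and glmQLFTest, and the 12 NC and HT libraries of both nuclei with an interaction term. The robust estimate and the filter were used because a fit with neither gave infinite prior degrees of freedom, against a median of 5.95 here and 4 residual. With the replicate block there are 2 residual and a median prior of 7.73. Calls are at an unadjusted p under 0.05, with Benjamini-Hochberg adjusted counts beside them. The SE is the absolute log2 fold change over the square root of F. The fit was tested on simulated data. Limits of detection cover counting error only. The unit of levels is CPM by TMM-scaled library size, computed here.

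Same-numbered NC and HT libraries deviated together from their group means (r = 0.309, 0.208 and 0.380 across miRNAs, and -0.307 to 0.066 for other pairs), and the numbers in the labels were used as the pairing on that ground. Centering on group means forces negative r in some other pairs when same-numbered pairs are positive, so these r do not show what the libraries share. The members and miRNA lists were chosen with earlier results of these data known. The rule for named miRNAs took the 15 smallest p, called miRNAs of at least 10 CPM without overlap, the 5 most abundant, called list members and tissue markers, and miRNAs named from the block or for their list position were chosen after their values were seen. The alternatives were DESeq2 1.42.0, other filters, scalings and estimates of spread, all 4 CEA groups, the block, and leaving out each library. Alternatives chosen after the data were seen were limma-voom with library weights, DESeq2 without HT library 1, and the usual estimate of spread with a minimum of 1 count. Tables and figures used Python 3.11.15, pandas 2.3.3 and matplotlib 3.10.9.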

Additional observations from a re-analysis of the deposited data

How the results depend on the processing

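The 6 miRNAs called between HT and NC in the CEA became 30 with a minimum of 1 count (16 higher, 14 lower, 1 at an adjusted p under 0.05), 38 with that minimum and the usual estimate of spread (2 adjusted) and 27 with the replicate block (1 adjusted). Leaving out 1 library gave 4 to 21 calls and 0 to 1 adjusted, with 21 calls without NC library 1 or HT library 2 and 16 without HT library 3. DESeq2 gave 1 adjusted call. The adjusted calls were miR-223-3p, miR-10b-5p or both, and the cause of these shifts was not tested. The other alternatives gave 4 to 9 calls. The interaction between nucleus and HT was called for 11 miRNAs, for 36 with a minimum of 1 count, 26 with the replicate block and 5 to 37 without 1 library, always with 0 adjusted. Apart from these counts and the miRNAs named with it in the results, the block changed no call of a named miRNA.

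Library totals moved the median log2 fold change of all miRNAs from -0.03 to -0.09, and that of the interaction from 0.00 to -0.14. The sign of some uncalled log2 fold changes turned. Leaving out 1 library gave -0.0779 to 0.809 for miR-148a-3p, -0.328 to 0.174 for miR-204-5p, -0.289 to 0.0804 for miR-124-3p, -0.142 to 0.421 for miR-7a-5p, -0.0534 to 0.122 for miR-9a-5p and -0.0535 to 0.122 for miR-9b-3p. DESeq2 without HT library 1 gave -0.0649 for miR-148a-3p, 0.0916 for miR-124-3p, -0.0414 for miR-9a-5p and -0.0414 for miR-9b-3p. For miR-9a-5p and miR-9b-3p, at least 10 counts in every library gave -0.00014 and -0.000482, library totals -0.0486 and -0.0489, and limma-voom with library weights -0.0527 and -0.0529. The difference of the HT effect between CEA and PVN ran from -0.517 to 0.952 for miR-200b-3p and from -0.0716 to 0.152 for miR-30d-5p without 1 library, and was -0.0906 for miR-30d-5p with library totals. The median interval was wider under 10 CPM than at 100 CPM or more, and how far depth or the spread between libraries sets it was not tested.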
